A study of Glycine max with 12 samples.

Results

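Abundant transcripts at similar levels in leaf and root of soybean (Glycine max) were followed through overexpression of the zinc finger gene GmZF351. The set holds 150 of the 43517 gene models in the deposited count table. It was chosen from the control plants by 2 conditions, computed on counts scaled to the library total (CPM, the count over the library total times 1e6). The mean level in control root was between 0.5 and 2 times that in control leaf, and among such genes the smaller of both control means was one of the 150 highest. Glyma.13G347700 was to be left out in any case, and its root to leaf ratio of 3.14 already placed it outside. All 150 members passed the filter on low counts and were tested.

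The control plants were the cultivar Jack, labelled WT and called WT here, and the overexpressing plants were the single transgenic line OE-34, called OE here. Both grew in pots, and leaves and roots were cut at the V1 stage, when the first trifoliate leaf had fully expanded. The 12 libraries form 4 groups of 3 repeats, named by genotype and tissue, such as OE leaf. With 1 line, an effect of GmZF351 and any other difference between OE-34 and Jack cannot be told apart. Which promoter drives the transgene is not stated in the labels.

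GmZF351 encodes a protein with tandem CCCH zinc fingers, a class of plant proteins that bind nucleic acids and act in development, stress responses and, for this gene, seed oil accumulation in soybean. Transcripts that are abundant in every organ typically serve needs common to all cells, such as protein synthesis, the cytoskeleton, protein turnover and central carbon metabolism. Such genes are often chosen as references for RT-qPCR, which assumes that their level does not move with the treatment. The soybean genome carries many duplicated gene pairs, so near-identical copies of such genes are common. The symbol table used here matched 0 of the 43517 identifiers of the files, so members are given by identifier and by position in the annotation Wm82.a2.v1.

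Libraries held 16885874 to 19041634 counts, and the members had 2151 to 27164 counts each in the WT libraries. The GmZF351 transcript (Glyma.06G290100) totalled 1 count over the 3 WT leaf libraries and 4 counts over the 3 WT root libraries, while OE leaf had 2296 ± 132.7 CPM and OE root had 1355 ± 65.1 CPM (SD, n = 3). The leaf markers RCA11 (Glyma.11G221000), a Rubisco activase gene, and RBCS2 (Glyma.19G046800), a Rubisco small subunit gene, were at 25975 ± 1161 and 13645 ± 1773 CPM in WT leaf and at 3.27 ± 0.167 and 5.06 ± 0.42 CPM in WT root. The root markers IFS1 (Glyma.07G202300), an isoflavone synthase gene, and NFR5A (Glyma.11G063100), a Nod factor receptor gene, were at 828 ± 55.2 and 22.9 ± 1.69 CPM in WT root and at 87.3 ± 9.45 CPM and 0 counts in WT leaf. WT root replicate 3 stood apart from its group, and results for named genes that rest on it are given with and without it. In whole organs, fewer cells of a type and less RNA per cell cannot be told apart.

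All levels and fold changes below are on library sizes scaled by TMM (trimmed mean of M values), which sets the bulk of the genes, not the total, equal between libraries. The factors were 0.665 to 0.676 in WT leaf, 0.862 to 0.889 in OE leaf, 1.249 to 1.276 in WT root and 1.345 to 1.352 in OE root. On this scale WT leaf values of the members are therefore higher against WT root values than in the totals that chose them. A member is called changed when the adjusted p of edgeR's quasi-likelihood test, with Benjamini-Hochberg adjustment over the 35968 genes tested, is under 0.05. The WT libraries that chose the members are also the baseline of both comparisons, so the counts of falls below carry that choice. When the same rule was applied to the OE libraries instead, an alternative added after the data were seen, 98 of the 149 genes it gave (GmZF351 left out) were members. Of those 149 genes, 46 were called higher and 56 lower in OE leaf, and 52 higher and 21 lower in OE root. In both tissues 28 were called higher and 16 lower, so rises outnumbered falls there, and 0 fell and 0 rose at least 4-fold in both.

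The members held 4.39% ± 0.03 of all counts in WT leaf and 4.94% ± 0.03 in WT root (SD, n = 3). In OE plants they held 4.19% ± 0.06 of leaf counts and 4.67% ± 0.07 of root counts. Per kilobase of exon, the member levels in WT leaf ran from 52.1 CPM in Glyma.08G008100 to 1342 CPM in Glyma.14G093100, with a median of 188.8. In WT root, levels per kilobase ran from 27.3 CPM in Glyma.08G188000 to 571.5 CPM in Glyma.07G150400, with a median of 108. The members were also steady among replicates, with a median coefficient of variation of 5.63% in WT leaf, 5.22% in OE leaf, 4.52% in WT root and 3.5% in OE root. Over all genes tested the medians were 13.8%, 11.3%, 11.9% and 8.92%, and abundant transcripts have less counting error.

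Members were spread over all 20 chromosomes, and 1 lay on a scaffold. Chromosome 8 carried 19 of them, chromosome 18 carried 12 and chromosome 20 carried 2. Their median exonic length was 1962 bp against 1857 bp over all genes tested, and the median number of exon records was 7 in both. Only 4 members overlapped another listed gene in span. Glyma.06G172600 and Glyma.06G172700 are both members, lie on the same strand and share 2698 bp, and reads in shared exons go to neither, so both values are uncertain. Glyma.09G044200 and Glyma.08G008100 each overlap an antisense gene with a mean of at most 10.8 CPM in any group, and the counts carry no strand.

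The rule cut the abundance list at 134.7 CPM of library totals, the smaller WT mean of Glyma.10G183900, the last member. The next genes, Glyma.11G219500, Glyma.07G022300 and Glyma.18G091500, had smaller means of 133.6, 133.1 and 132.8. At the low end of the root to leaf ratio the last members were Glyma.12G159300 at 0.529 and Glyma.17G109400 at 0.533, with Glyma.12G084100 at 0.49 and Glyma.15G190500 at 0.481 outside. At the high end they were Glyma.15G050200 at 1.978 and Glyma.03G228200 at 1.942, with Glyma.08G132800 at 2.01 and Glyma.05G187300 at 2.03 outside.

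In OE leaf, most members differed from WT, and most of those were lower. Of 150 members, 116 were called (77.3%), with 20 higher and 96 lower, where 40.4% of all genes tested were called, 18.3% higher and 22.1% lower. Rises of at least 2-fold were called in 0 members and in 4.89% of all genes, while 27 members fell at least 2-fold and 15 at least 4-fold, against 7.42% and 2.7% of all genes. The median log2 fold change was -0.42 over the members and 0.00 over all genes. Without regard to sign it was 0.46 in members and 0.38 over all genes. OE and WT libraries did not overlap in 125 members, 25 with OE higher and 100 with OE lower, where 47% of all genes did not overlap, 22.2% with OE higher and 24.9% lower. On library totals alone, which move the median of all genes in leaf by 0.38 on the log2 scale, the calls were 53 higher and 53 lower and the members' median was -0.04.

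In OE root, fewer members passed the test and falls again outnumbered rises. There 87 members were called (58%), with 29 higher and 58 lower, where 30.1% of all genes were called, 12% higher and 18.1% lower. At least 2-fold changes numbered 2 rises and 20 falls, and 12 members fell at least 4-fold, where 2.02%, 5.52% and 1.71% of all genes did. The median log2 fold change was -0.11 over the members and -0.02 over all genes. Without regard to sign it was 0.25 in members and 0.28 over all genes, so typical root effects were not larger in members. OE and WT libraries did not overlap in 114 members, 40 with OE higher and 74 with OE lower, where 44.2% of all genes did not overlap, 19.5% with OE higher and 24.7% lower. On library totals alone the calls were 41 higher and 46 lower.

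**Figure D1:**
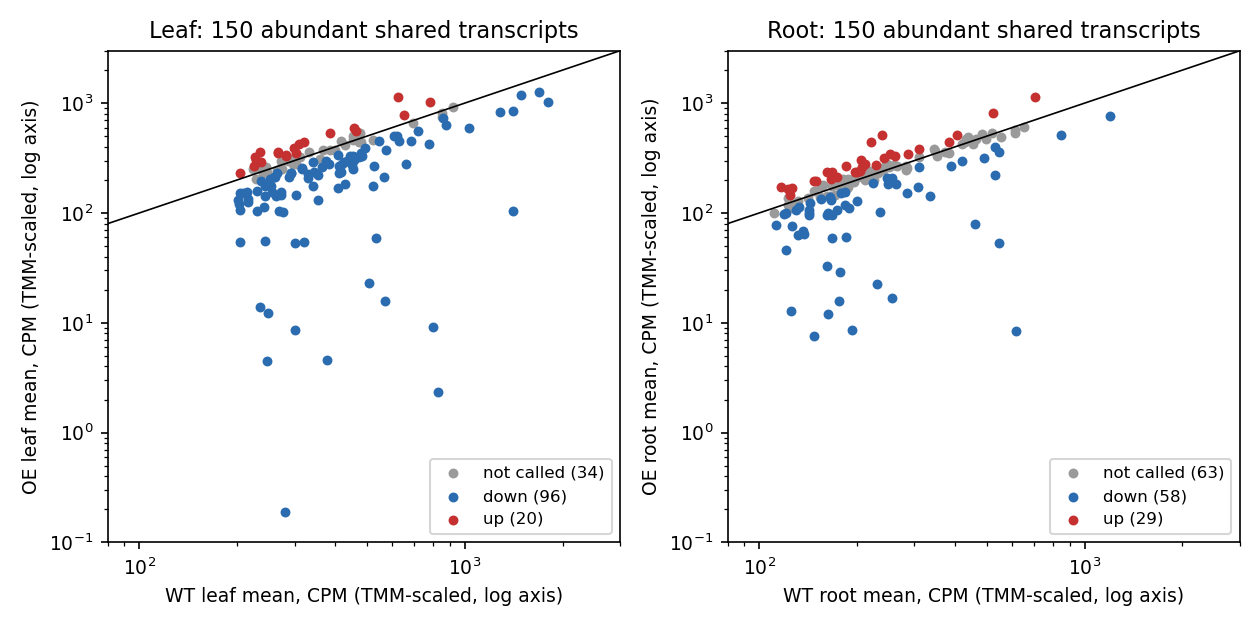
Mean level of each of the 150 members in OE libraries (vertical) against WT libraries (horizontal), in TMM-scaled CPM on log axes, for leaf (left) and root (right), with the line of equal levels. Red points were called higher, blue points lower and grey points were not called, and Glyma.18G103500, with 0 counts in OE leaf, is drawn at its floor of 3 counts per library. A tail of blue points lies far under the line in both panels, while the 20 red points in leaf and the 29 in root lie close to it.

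The question put to these genes is whether overexpression changes them alike in both tissues. Of 150 members, 72 were called in both leaf and root, where 15.9% of all genes were. The direction was the same in 61 of them (12.9% of all genes), 51 lower in both (34%, and 8.45% of all genes) and 10 higher in both (6.67%, and 4.41% of all genes), and opposite in 11 (3.05% of all genes). The same direction thus held in 84.7% of the members called in both, and in 80.8% of all genes called in both. Of the other members, 36 were lower in leaf only (24%, and 12.1% of all genes) and 8 higher in leaf only (5.33%, and 12.4% of all genes). In root only, 5 were lower (3.33%, and 8.11% of all genes) and 10 higher (6.67%, near the 6.06% of all genes). The remaining 19 were called in neither (12.7%, and 45.4% of all genes). Errors were smaller in members, with a median SE of the root effect minus the leaf effect of 0.112, against 0.249 over all genes. A larger share of calls is therefore not by itself a larger response, and how far precision sets these shares was not tested. On library totals alone, 35 were lower in both, 26 higher in both and 7 opposite, with the same direction in 89.7%.

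Same direction did not mean same size. The root effect minus the leaf effect was called in 75 members (50%), where 22.8% of all genes were, and it was positive in 64 and negative in 11. In all genes 11.6% were positive and 11.2% negative. The members' median difference was 0.25 on the log2 scale and that of all genes -0.04. Without regard to sign, the median difference was 0.32 in members and 0.41 over all genes, with median SEs of 0.112 and 0.249. The larger share of calls in members thus did not come with larger typical differences. On library totals alone, 36 were positive and 38 negative, since that scaling moves the median of all genes by -0.28. Of the 51 members lower in both tissues, 24 had no called difference, 24 were lower by more in leaf and 3 were lower by more in root. None of the 10 members higher in both had a called difference with TMM, and some of them had one with library totals.

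**Figure D2:**
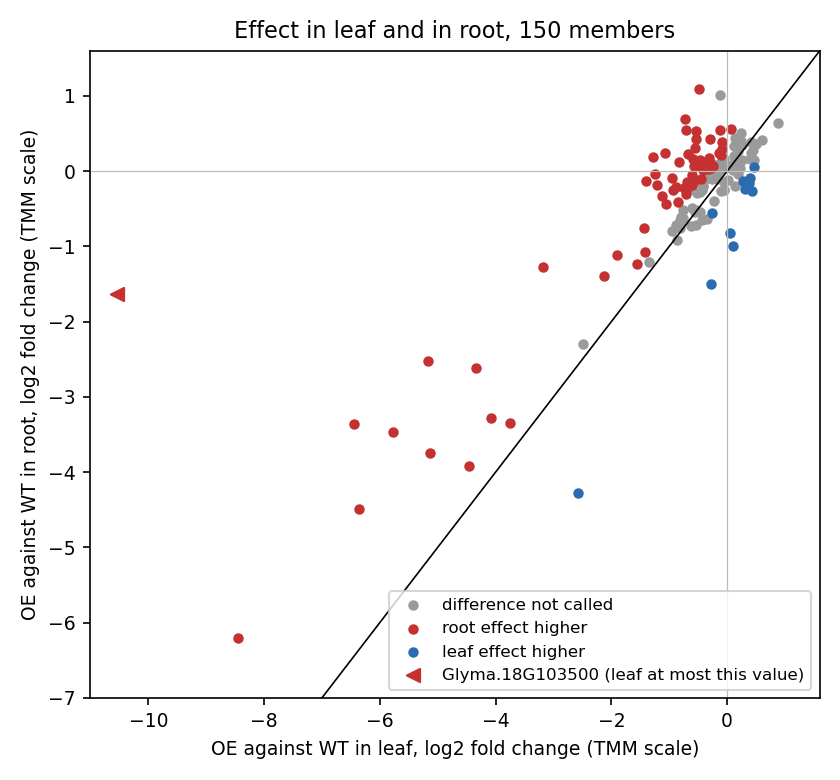
Log2 fold change of OE against WT in root (vertical) against leaf (horizontal) for the 150 members, with the line of equal effects. Red points had a called root-minus-leaf difference above 0 (64, including the triangle), blue points below 0 (11) and grey points none (75). The points at the lower left are the members that fell at least 4-fold in both tissues, and most of them lie above the line, lower by more in leaf.

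Across the members, leaf and root fold changes had a Pearson correlation of 0.74 and a Spearman correlation of 0.61, with the same sign in 103 of 150, as a description over genes that share the same libraries. Without the 12 members that fell 4-fold in both tissues the values were 0.47 and 0.5, with the same sign in 91 of 138. Over all genes tested the correlations were 0.31 and 0.29. The same sign was found in 59.5% of all genes, 68.7% of the members and 65.9% of the members without the 12. The 138 still include Glyma.18G103500, with 0 counts in OE leaf, so the size of its leaf value is not determined. The fit gave it -15.34 in leaf and -1.63 in root, where the floor on its counts gives only a leaf value of at most -10.54. The Pearson correlations of the members, with and without the 12, therefore depend on the leaf value used for this gene.

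Another 61 genes were as abundant in both WT tissues but lay outside the ratio bounds. In OE leaf 46 of them were called, 10 higher and 36 lower, and in OE root 36 were called, 17 higher and 19 lower. Called falls of at least 2-fold in leaf were found in 12 (19.7%, and 18% of the members) and of at least 4-fold in 6 (9.84%, and 10% of the members). For root these were 7 (11.5%, and 13.3% of the members) and 3 (4.92%, and 8% of the members). The difference between tissues was called in 39 (63.9%, and 50% of the members). Their shares of calls, 75.4% in leaf and 59% in root, stood beside 77.3% and 58% in the members, and whether the sets differ was not tested.

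**Figure D3:**
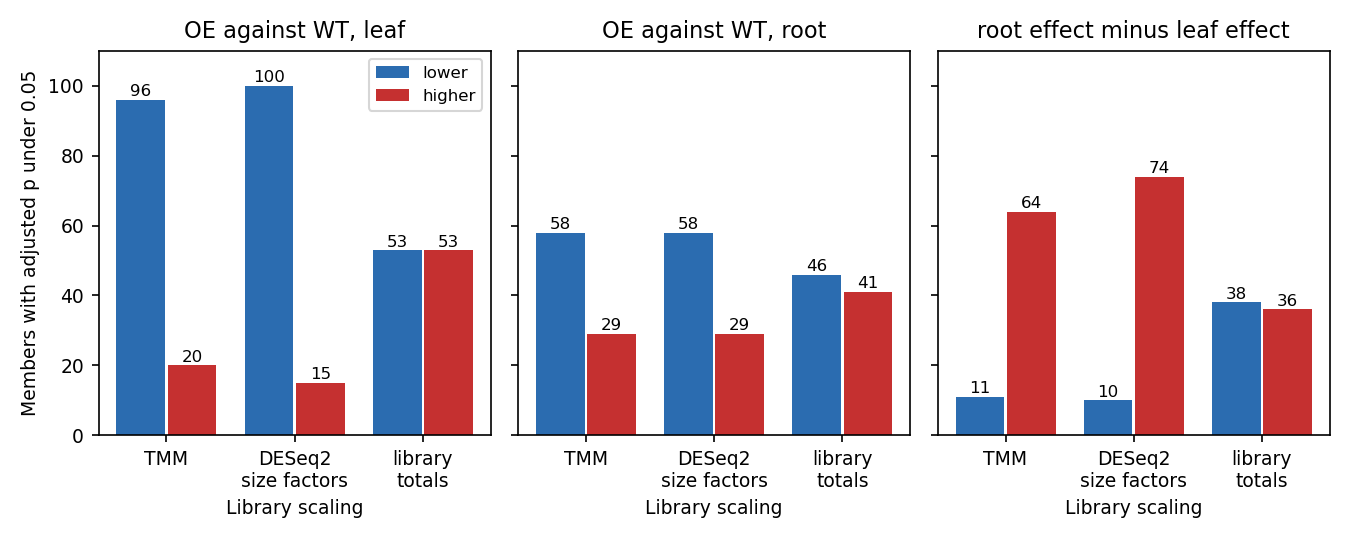
Number of the 150 members called lower (blue) and higher (red) with 3 ways of scaling the libraries, for the leaf comparison, the root comparison and the root effect minus the leaf effect. In leaf the split is 96 lower and 20 higher with TMM, 100 and 15 with DESeq2 size factors, and 53 and 53 with library totals.

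In members chosen on WT levels the largest changes were falls. In 12 members the level fell at least 4-fold in leaf and in root, where 187 of all genes tested (0.52%) did. Rises of at least 2-fold in both tissues were found in 0 members and in 0.3% of all genes. Together the 12 had 6149 ± 74.5 CPM in WT leaf and 306 ± 5.52 CPM in OE leaf (SD, n = 3). In root their sum was 3252 ± 53.9 CPM in WT and 299.99 ± 6.78 CPM in OE. The 12 lay on 10 chromosomes. The same 12 members fell at least 4-fold in both tissues with library totals, with DESeq2 size factors and in the DESeq2 Wald test. Falls ranged from 5.63-fold to 348-fold in leaf and from 4.89-fold to 73.7-fold in root.

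Glyma.01G113000 (chromosome 1, 38674554 to 38679976, minus strand, 2181 bp of exon) was the most abundant of the 12 in WT leaf. Its WT leaf libraries held 1402, 1398 and 1430.0 CPM and its OE leaf libraries 111, 99.3 and 103 CPM. In root the WT libraries held 524, 538 and 579.5 CPM and the OE libraries 52.8, 53.2 and 54.6 CPM. Every OE library was far under every WT library of its tissue. The fall was 13.5-fold in leaf (log2 fold change -3.76, SE 0.0856, edgeR adjusted p = 1.28e-26) and 10.2-fold in root (log2 fold change -3.35, SE 0.0846, adjusted p = 4.17e-25). The difference of 0.40 between tissues was called with TMM (adjusted p = 0.00684), and with library totals it was 0.12 and not called (adjusted p = 0.444).

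Glyma.19G098500 (chromosome 19, 34393327 to 34396049, minus strand, 1406 bp of exon) fell the most of the 12 in both tissues. It had 877, 769 and 840.3 CPM in WT leaf and 3.01, 1.89 and 2.2 CPM in OE leaf, where its counts were 50, 31 and 33. In WT root it had 617, 613 and 621 CPM and in OE root 8.68, 7.91 and 8.48 CPM. Transcripts were thus still counted in each OE library, but few. The fall was 348-fold in leaf (log2 fold change -8.44, SE 0.128, edgeR adjusted p = 3.5e-31) and 73.7-fold in root (log2 fold change -6.20, SE 0.107, adjusted p = 1.99e-29), and larger in leaf (difference 2.24, SE 0.168, adjusted p = 4.25e-12).

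Glyma.03G078300 (chromosome 3, 19628680 to 19634712, minus strand) had the largest tissue difference among the 12. It went from 794, 781 and 830.1 CPM in WT leaf to 10.6, 8.47 and 8.53 CPM in OE leaf, an 87-fold fall. In root it went from 223, 233 and 235 CPM to 24.7, 21.5 and 20.8 CPM, a 10.3-fold fall. The difference on the log2 scale was 3.08 (SE 0.133, edgeR adjusted p = 7.06e-18). The order of the tissues turned over: WT leaf was above WT root in this gene, and OE leaf was under OE root, with no overlap between tissues in either genotype.

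Glyma.16G052000 (chromosome 16, 5010554 to 5013418, minus strand) went from 536, 583 and 584 CPM to 15.2, 15.5 and 16.4 CPM in leaf. In root it went from 457, 459 and 462 CPM to 78.2, 80.5 and 81.6 CPM, so it kept more of its level there. The falls were 36.1-fold and 5.73-fold (difference 2.66, SE 0.114, edgeR adjusted p = 6.68e-18). Glyma.09G153900 (chromosome 9, 37666799 to 37671117, plus strand) had 228, 265 and 248 CPM in WT leaf against 3.85, 5.12 and 4.53 CPM in OE leaf, and 169, 179 and 179 CPM in WT root against 14.6, 15.8 and 17.2 CPM in OE root. It too was lower by more in leaf, 54.9-fold against 11.1-fold in root (difference 2.31, SE 0.146, adjusted p = 7.18e-14).

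Glyma.08G056400 (chromosome 8, 4330055 to 4332640, minus strand) went from 382, 374 and 375 CPM to 3.01, 5.12 and 5.73 CPM in leaf, an 82-fold fall. In root it went from 188, 206 and 186 CPM to 9.68, 7.79 and 8.36 CPM, a 22.4-fold fall. Its OE leaf libraries had a coefficient of variation of 30.9%, the highest of any member in that group, at 50, 84 and 86 counts. Glyma.13G162600 (chromosome 13, 27790437 to 27793621, minus strand) fell from 302 ± 22.7 to 8.6 ± 0.724 CPM in leaf and from 163 ± 3.13 to 12.1 ± 0.938 CPM in root (SD, n = 3). Both genes were lower by more in leaf, with differences of 1.87 (SE 0.174, edgeR adjusted p = 6.16e-10) and 1.39 (SE 0.134, adjusted p = 1.17e-09).

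Glyma.17G114700 (chromosome 17, 9074437 to 9077350, plus strand) was nearer to an equal fall. Its leaf libraries held 463, 548 and 517 CPM in WT and 27, 22.6 and 19.9 CPM in OE, 21.9-fold lower. Its root libraries held 264, 247 and 257 CPM in WT and 15.4, 16.6 and 18.7 CPM in OE, 15.1-fold lower. The difference of 0.54 (SE 0.138) was called with TMM (edgeR adjusted p = 0.00416), and with library totals it was 0.25 and not called (adjusted p = 0.157).

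Glyma.20G167500 (chromosome 20, 40540605 to 40542727, minus strand) was the exception among the 12, with the larger fall in root. In leaf it went from 309, 339 and 317 CPM to 50.1, 56.8 and 54.8 CPM, a 5.97-fold fall. In root it went from 145.6, 147.6 and 150.2 CPM to 8.3, 6.6 and 7.96 CPM, a 19.4-fold fall. The difference was -1.70 (SE 0.126, edgeR adjusted p = 3.28e-12), the most negative of any member.

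The other 3 of the 12 fall outside the naming rule and were named after their values were seen. Glyma.18G025500 (chromosome 18, 1879117 to 1887759) was the only one with no called difference: it fell 5.63-fold in leaf, from 302 ± 15.7 to 53.6 ± 2.45 CPM, and 4.89-fold in root, from 161 ± 7.61 to 32.9 ± 2.98 CPM (difference 0.20, SE 0.117, edgeR adjusted p = 0.236). Glyma.18G072800 (chromosome 18, 6873417 to 6878947) fell 20.2-fold in leaf, to 12.3 ± 1.8 CPM, and 6.16-fold in root, to 28.7 ± 1.1 CPM. Glyma.13G166800 (chromosome 13, 28161946 to 28164623) fell 16.8-fold in leaf, to 13.9 ± 1.9 CPM, and 9.74-fold in root, to 12.9 ± 1.3 CPM (SD, n = 3). These 2 were lower by more in leaf, by 1.72 (SE 0.132) and 0.79 (SE 0.139) on the log2 scale.

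The genes next to the 12 were read off as well. Of the 48 genes nearest to them, 2 on each side, 38 were tested, and 0 fell at least 4-fold in both tissues, which is near the background of 0.52% of all genes. Called falls in both tissues were found in 7 of these neighbours (18.4%, and 8.45% of all genes) and called rises in both in 2 (5.26%, and 4.41% of all genes). Both neighbours with a called fall of at least 4-fold in leaf lie beside Glyma.08G056400, and were named after their values were seen. They are Glyma.08G056300, with log2 fold changes of -2.28 in leaf and -1.72 (not called) in root, and Glyma.08G056600, with -2.03 in leaf and 0.49 (not called) in root.

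**Figure D4:**
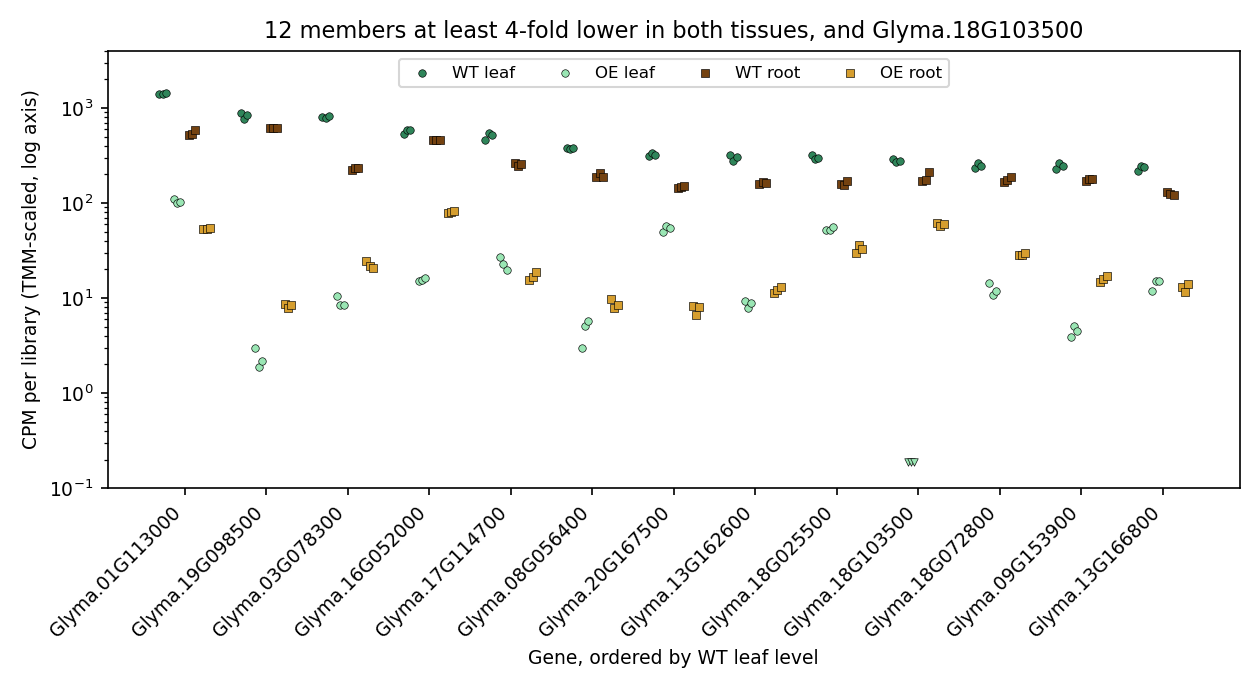
Level in each library, in TMM-scaled CPM on a log axis, of the 12 members that fell at least 4-fold in both tissues and of Glyma.18G103500, ordered by WT leaf level. Circles are leaf and squares root, dark in WT and light in OE, with 3 libraries per group, and the triangles for Glyma.18G103500 mark its floor of 3 counts in OE leaf libraries that held 0. OE libraries lie under WT libraries of the same tissue in each gene, and Glyma.20G167500 is the one with root lowest relative to leaf.

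A further 3 members fell at least 4-fold in leaf and by less in root. Glyma.18G103500 (chromosome 18, 11234541 to 11236613, plus strand) had 289, 273 and 278 CPM in WT leaf, from 3330 to 3505 counts, and 0 counts in each OE leaf library. Against a floor of 3 counts per library, which covers counting error only, it was at least 1492-fold lower in OE leaf. In OE root it was still present, at 62.1, 57.9 and 59.6 CPM against 171, 173 and 213 CPM in WT root, a 3.09-fold fall (log2 fold change -1.63, SE 0.0877, edgeR adjusted p = 1.29e-15). The root effect was thus at least 8.91 above the leaf effect on the log2 scale.

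Glyma.09G223700 (chromosome 9, 44873159 to 44877116) and Glyma.13G149800 (chromosome 13, 26329040 to 26335075) were named after their values were seen. The first fell 9.05-fold in leaf, from 535 ± 21.6 to 59.1 ± 0.859 CPM, and 2.42-fold in root, from 531 ± 24 to 219.6 ± 6.85 CPM. The second fell 4.35-fold in leaf, from 243 ± 4.82 to 56 ± 3.06 CPM, and 2.62-fold in root, from 121 ± 4.64 to 46.3 ± 0.737 CPM (SD, n = 3). Both were lower by more in leaf, with differences of 1.90 (SE 0.109, edgeR adjusted p = 5.93e-15) and 0.73 (SE 0.109, adjusted p = 4.42e-06).

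Beside the 12, the other 39 members lower in both tissues were mostly lower by less than 2-fold. Their median log2 fold change was -0.79 in leaf and -0.62 in root, and 23 of them had no called difference between tissues. The most abundant member, Glyma.16G038300 (chromosome 16, 3617280 to 3622647, plus strand, 3329 bp of exon), is one of them. Its WT leaf libraries held 1848, 1833 and 1727 CPM and its OE leaf libraries 1054, 1047 and 988 CPM. Its WT root libraries held 1208, 1145 and 1229 CPM and its OE root libraries 752, 741 and 794 CPM. It was 1.75-fold lower in leaf (edgeR adjusted p = 2.62e-10) and 1.57-fold lower in root (adjusted p = 4.58e-08), with a difference of 0.16 (SE 0.109, adjusted p = 0.319).

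Glyma.11G068000 (chromosome 11, 5113168 to 5116470, plus strand) moved in the same way, from 1280.4 ± 88.2 to 827 ± 49.5 CPM in leaf and from 848 ± 19.1 to 513 ± 27.8 CPM in root (SD, n = 3). The log2 fold changes were -0.63 (SE 0.0803) and -0.72 (SE 0.0804), with a difference of -0.09 (SE 0.113, edgeR adjusted p = 0.624) that was called with library totals (-0.38, adjusted p = 0.00876). Glyma.06G172600, whose counts are uncertain, fell 1.73-fold in leaf, from 1028 ± 67.6 to 594 ± 35 CPM, and 1.53-fold in root, from 545 ± 33.7 to 356 ± 13.4 CPM. Its overlapping neighbour Glyma.06G172700 was called in neither tissue. Glyma.14G216300 (chromosome 14, 48088714 to 48091531, plus strand) was 1.18-fold lower in leaf and 1.32-fold lower in root. Its leaf call (log2 fold change -0.24) was lost without OE leaf replicate 3 (adjusted p = 0.0695) or WT leaf replicate 3 (adjusted p = 0.062), and with library totals its leaf value was 0.15.

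Some of the most abundant members were called lower in leaf only. Glyma.01G175700 (chromosome 1, 51244446 to 51248246, plus strand) went from 1652, 1756 and 1652 CPM to 1172, 1194 and 1446 CPM in leaf, 1.33-fold lower (edgeR adjusted p = 0.000206). In root it had 605, 609 and 614 CPM in WT and 495, 572 and 528 CPM in OE, a log2 fold change of -0.20 that was not called (SE 0.085, adjusted p = 0.0792) but was in a fit of the root libraries alone (-0.17, adjusted p = 0.0257). Its groups did not overlap in either tissue, and the difference between tissues was 0.21 (adjusted p = 0.22). With library totals its leaf value was -0.02 and not called (adjusted p = 0.837). Glyma.01G071300 (chromosome 1, 12899424 to 12902300, plus strand) went from 1488 ± 115 to 1191 ± 5.52 CPM in leaf (log2 fold change -0.32, edgeR adjusted p = 0.00116) and from 518 ± 11.9 to 538 ± 17.2 CPM in root. With library totals its leaf value was 0.06 and its difference between tissues, 0.38 with TMM, was 0.09 and not called. The 36 members lower in leaf only had a median leaf log2 fold change of -0.46, and in 25 of them the difference between tissues was called.

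Last in abundance, Glyma.06G030900, Glyma.08G181000 and Glyma.10G183900 were lower in leaf by 1.92-fold, 1.67-fold and 1.53-fold. In root the first and second were called lower by 1.18-fold and 1.17-fold. The third had 142 ± 2.21 CPM in OE root against 161 ± 9.77 CPM in WT (edgeR adjusted p = 0.0635, and 0.0483 without WT leaf replicate 2). It was called lower there by the DESeq2 Wald test (-0.19, adjusted p = 0.0319) and in an edgeR fit of the root libraries alone (-0.16, adjusted p = 0.0463). The root call of Glyma.06G030900 was lost without OE root replicate 2 (edgeR adjusted p = 0.0919) or 3 (adjusted p = 0.0514). That of Glyma.08G181000 was lost without any 1 of OE root replicates 1, 2 and 3 or WT root replicates 1 and 2. With library totals both root calls were lost, at -0.15 (adjusted p = 0.148) and -0.12 (adjusted p = 0.234). The root-minus-leaf differences were 0.70 (SE 0.111), 0.52 (SE 0.11) and 0.42 (SE 0.111), and with library totals the last 2 were 0.23 and 0.13 and not called.

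Rises were smaller. All 10 members higher in both tissues rose between 1.14-fold and 1.84-fold in leaf and between 1.18-fold and 1.56-fold in root. Glyma.09G044200 (chromosome 9, 3772564 to 3774749, plus strand, 1248 bp of exon) led them. In leaf it went from 568, 664 and 639.9 CPM to 993, 1272 and 1173 CPM (log2 fold change 0.88, SE 0.0888, edgeR adjusted p = 8.78e-10). In root it went from 527, 516 and 522 CPM to 863, 754 and 832 CPM (log2 fold change 0.65, SE 0.0883, adjusted p = 6.16e-07). The antisense neighbour that overlaps it by 45 bp, Glyma.09G044100, had means of 2.52 to 10.8 CPM over the 4 groups.

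Glyma.12G237000 (chromosome 12, 39586913 to 39594790, plus strand) had 260.3, 217 and 229 CPM in WT leaf and 367, 345 and 363 CPM in OE leaf, a 1.52-fold rise. In root it had 134, 128 and 117 CPM in WT and 164, 180.1 and 161 CPM in OE, a 1.33-fold rise. Glyma.12G095700 (chromosome 12, 8033041 to 8036166, plus strand) rose 1.42-fold in leaf, from 227 ± 6.94 to 321 ± 11 CPM, and 1.28-fold in root, from 207 ± 6.97 to 265 ± 2.7 CPM (SD, n = 3). With library totals the differences of Glyma.09G044200, Glyma.12G237000 and Glyma.12G095700 were called, at -0.52, -0.48 and -0.43, with the larger rise in leaf. The other 7, outside the naming rule, were Glyma.18G074100, Glyma.18G216000, Glyma.06G069600, Glyma.04G016800, Glyma.08G124600, Glyma.08G332900 and Glyma.02G302500.

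Among members higher in leaf, Glyma.19G032000 and Glyma.08G145600 did not pass in root. Glyma.19G032000 (chromosome 19, 4048643 to 4050974, plus strand) had 368, 407 and 382 CPM in WT leaf and 516, 568 and 510.3 CPM in OE leaf, a 1.38-fold rise (edgeR adjusted p = 1.99e-05). In root it had 176 ± 14 CPM in WT and 183 ± 8.82 CPM in OE, and the difference of -0.40 was called (adjusted p = 0.00935). Glyma.08G145600 (chromosome 8, 11066152 to 11073328, minus strand) also rose 1.38-fold in leaf, from 321 ± 41.4 to 444 ± 43.9 CPM, against 182 ± 1 and 202 ± 21 CPM in root. Its difference of -0.31 was not called (adjusted p = 0.0851), but it was called without WT leaf replicate 1 (-0.41, adjusted p = 0.0196), OE leaf replicate 2 (-0.38, adjusted p = 0.0405) or OE root replicate 2 (-0.40, adjusted p = 0.0344), and with library totals (-0.60, adjusted p = 0.000709). Its root value was called higher with library totals (0.25, adjusted p = 0.0382) and in a fit of the root libraries alone (0.18, adjusted p = 0.04).

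In 11 members the calls had opposite signs in the tissues. A fall in leaf with a rise in root was called in 9 members (6%) and in 1.51% of all genes. In each of the 11 the difference itself was called. Glyma.19G186100 (chromosome 19, 44462011 to 44463438, minus strand, 1334 bp of exon) had the highest levels among the 11. Its WT leaf libraries held 1432, 1421 and 1373 CPM and its OE leaf libraries 840.2, 912 and 806 CPM. Its WT root libraries held 849, 749 and 515 CPM and its OE root libraries 1120.1, 1114 and 1174 CPM. OE was under WT in leaf and above WT in root, without overlap in either, and WT root replicate 3 was the lowest of its group. The log2 fold change was -0.72 in leaf (SE 0.114, edgeR adjusted p = 1.18e-05) and 0.69 in root (SE 0.114, adjusted p = 3.68e-05), with a difference of 1.41 (SE 0.161, adjusted p = 2.65e-07). Without WT root replicate 3 the root value was 0.51 (adjusted p = 7.93e-06), and in a fit of the root libraries alone it was 0.72 and not called (adjusted p = 0.0597).

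Glyma.10G211000 (chromosome 10, 44343751 to 44346957, plus strand) had the largest rise of any member in root. It went from 266, 258 and 192 CPM to 518, 509 and 504 CPM there (log2 fold change 1.10, SE 0.102, edgeR adjusted p = 5.82e-10), and without WT root replicate 3, again the lowest, the value was 0.96 (adjusted p = 5.67e-11). In leaf it went from 647, 643 and 597 CPM to 381, 473 and 500.2 CPM (log2 fold change -0.48, SE 0.101, adjusted p = 0.000307). The difference was 1.58 (SE 0.143, adjusted p = 9.05e-10). With library totals the leaf value was -0.09 and not called (adjusted p = 0.429), so the opposite direction rests on the scaling.

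Glyma.12G159300 (chromosome 12, 27787400 to 27791365, minus strand) went from 445, 419 and 440.3 CPM to 283, 307 and 308 CPM in leaf, 1.45-fold lower. In root it went from 137, 134 and 97.3 CPM to 167, 167 and 163 CPM, 1.35-fold higher, where the third WT library is again the lowest. Its root log2 fold change of 0.43 was 0.29 without that library (edgeR adjusted p = 0.00518), and its leaf value with library totals was -0.16 and not called (adjusted p = 0.14). The difference was 0.97 (SE 0.131, adjusted p = 8.38e-07).

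The other 6 with a fall in leaf and a rise in root lie outside the naming rule, and 3 are given here after their values were seen, since WT root replicate 3 was near its group in them. Glyma.18G289000 (chromosome 18, 56863534 to 56867736) went from 243, 275 and 249.6 CPM to 153.2, 163 and 155 CPM in leaf and from 208, 202 and 209 CPM to 309.7, 299 and 295 CPM in root. Glyma.05G175600 (chromosome 5, 36449460 to 36451626) went from 349, 323 and 363 CPM to 252, 226 and 237 CPM in leaf and from 185, 179.5 and 188 CPM to 263, 266 and 273 CPM in root. Glyma.02G103900 (chromosome 2, 9863875 to 9869731) went from 331 ± 18.8 to 225 ± 8.08 CPM in leaf and from 166 ± 4.81 to 205 ± 3.86 CPM in root (SD, n = 3). All 3 had groups that did not overlap in either tissue, and root effects above the leaf effects by 2.38-fold (edgeR adjusted p = 1.03e-10), 2.1-fold (adjusted p = 3.53e-09) and 1.82-fold (adjusted p = 1.84e-07). The remaining 3 were Glyma.04G215900, Glyma.19G232400 and Glyma.11G190200. With library totals 5 members, not 9, were lower in leaf and higher in root.

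Glyma.01G225200 and Glyma.03G247400, also named after their values were seen, went the other way. These 2 are 1.33% of the members, near the 1.54% of all genes with a rise in leaf and a fall in root. Glyma.01G225200 (chromosome 1, 55393888 to 55402683) rose from 237 ± 10.8 to 293 ± 7.22 CPM in leaf and fell from 179 ± 4.58 to 151.1 ± 8.03 CPM in root. Glyma.03G247400 (chromosome 3, 44423506 to 44426121) rose from 267 ± 6.16 to 361 ± 24.7 CPM in leaf and fell from 121 ± 9.84 to 100.2 ± 6.51 CPM in root (SD, n = 3). Their differences were -0.55 (SE 0.107, edgeR adjusted p = 0.00023) and -0.70 (SE 0.115, adjusted p = 2e-05).

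Other members were called lower in root and, with TMM, changed less in leaf. Glyma.10G205500 (chromosome 10, 43701930 to 43711002, plus strand) went from 163, 166 and 172 CPM to 60.1, 62 and 55.5 CPM in root, 2.82-fold lower (edgeR adjusted p = 2.55e-16). In leaf it went from 579, 514 and 538 CPM to 448, 438 and 457 CPM, 1.21-fold lower (adjusted p = 0.00356), and with library totals its leaf value was 0.10. The difference was -1.22 (SE 0.11, adjusted p = 3.13e-10). Glyma.05G169900 (chromosome 5, 36025433 to 36026691, minus strand) was 1.99-fold lower in root, at 118, 137 and 155 CPM in WT and 70.6, 68.1 and 67.4 CPM in OE, while its leaf groups overlapped at 245 ± 31.7 and 264 ± 32.7 CPM. Glyma.13G145000 (chromosome 13, 25758490 to 25763596, minus strand) was 1.77-fold lower in root, at 308 ± 2.83 and 174 ± 6.55 CPM, with 366 ± 13.7 and 377 ± 9.23 CPM in leaf (SD, n = 3). The differences of these last genes were -1.10 (SE 0.143, adjusted p = 6.53e-07) and -0.87 (SE 0.105, adjusted p = 1.2e-07). With library totals both were called higher in leaf, Glyma.05G169900 by 0.49 (adjusted p = 0.000113) and Glyma.13G145000 by 0.42 (adjusted p = 1.34e-05).

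Rises in root without a call in leaf were found in 10 members, a share of 6.67% that is near the 6.06% of all genes. Glyma.10G180100 (chromosome 10, 41371565 to 41374446, plus strand) went from 122, 111 and 118 CPM to 169.6, 174 and 173 CPM in root (log2 fold change 0.56, SE 0.0776, edgeR adjusted p = 8.33e-07), against 312 ± 22.9 and 325 ± 5.22 CPM in leaf. Its difference of 0.50 was called with TMM (adjusted p = 0.000843), and with library totals it was 0.21 and not called (adjusted p = 0.132), with the leaf value called higher (0.44, adjusted p = 1.04e-05). Glyma.01G025100 (chromosome 1, 2601431 to 2602687, plus strand) had 299, 239 and 125 CPM in WT root and 415, 453 and 463 CPM in OE root. WT root replicate 3 held less than the other 2, and the coefficient of variation of 39.9% was the highest of any member in that group. The log2 fold change was 1.01 (SE 0.269, adjusted p = 0.0219), and 0.72 (adjusted p = 4.64e-07) without that replicate. The call was lost without OE root replicate 2 (edgeR adjusted p = 0.0612), OE root replicate 3 (adjusted p = 0.0629) or WT root replicate 2 (adjusted p = 0.05003). A fit of the root libraries alone did not call it either (1.03, adjusted p = 0.0981). The gene's difference of 1.13 between tissues was not called (adjusted p = 0.0668). That difference was called without WT root replicate 1 (1.41, adjusted p = 0.0107) or replicate 3 (0.85, adjusted p = 6.27e-06), and by the DESeq2 Wald test (1.20, adjusted p = 0.00574).

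In 19 members (12.7%, and 45.4% of all genes) neither tissue passed the test, with log2 fold changes from -0.20 to 0.18 in leaf and from -0.19 to 0.20 in root. Ranked by the larger of the absolute leaf and root log2 fold changes, Glyma.U021900 (scaffold_21, 3519949 to 3522670) moved least. It had 444, 468 and 448 CPM in WT leaf and 402, 518 and 479.6 CPM in OE leaf. In root it had 441, 444 and 401 CPM in WT and 456, 404 and 460.1 CPM in OE, and its groups overlapped in both tissues. Its log2 fold change was 0.04 in leaf (SE 0.0869) and 0.04 in root (SE 0.0864). Glyma.06G172700, Glyma.15G050200, Glyma.15G203700 and Glyma.18G015300 followed, with values between -0.08 and 0.10 in both tissues and SEs from 0.0743 to 0.0953.

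Steadiness in leaf depended on the scaling. With library totals each of these 5 members was called higher in OE leaf, from 0.30 in Glyma.15G203700 to 0.48 in Glyma.18G015300, with 0.33 in Glyma.15G050200, 0.42 in Glyma.U021900 and 0.43 in Glyma.06G172700. The same shift applies to all genes, whose median rises by 0.38. Abundant members beside them, Glyma.03G171100 at 922 ± 21 and 929 ± 56.1 CPM in WT and OE leaf and Glyma.07G150400 at 853 ± 41 and 755 ± 53.1 CPM, were called in neither tissue with TMM. With library totals their leaf values were 0.39 and 0.21, both called, and with DESeq2 size factors Glyma.07G150400 was called lower in leaf (-0.23, edgeR adjusted p = 0.0201). At the upper end of the ratio, Glyma.03G228200 had 224 ± 7.83 and 253 ± 17.3 CPM in leaf and 232 ± 19.3 and 231 ± 7.84 CPM in root and was not called, but its leaf value was called without OE leaf replicate 3 (0.24, adjusted p = 0.0353) or WT root replicate 3 (0.18, adjusted p = 0.048) and in a fit of the leaf libraries alone (0.19, adjusted p = 0.0415). With library totals Glyma.03G228200 was called higher in leaf (0.56, adjusted p = 6.35e-07) and its difference of -0.47 was called (adjusted p = 0.00163).

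Glyma.17G109400, at the lower end of the ratio, was lower in both, from 457 ± 10.4 to 319.7 ± 12.2 CPM in leaf and from 129.7 ± 7.74 to 106 ± 6.49 CPM in root (SD, n = 3). The log2 fold changes were -0.52 and -0.29, and with library totals neither was called (-0.13 and -0.19).

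Soybean genes in use as RT-qPCR references were looked up by identifier from a list of 11. The symbol table matched the name of only 1 of the 11, neither of the members among them, so the genes are given by identifier and their names were not checked. Of the 11, 3 were called higher and 2 lower in OE leaf, 4 higher and 1 lower in OE root, and 3 in neither. In all genes 40.4% were called in leaf, 30.1% in root and 45.4% in neither, and with 11 genes these counts are read as a description only. The identifiers of 2 belong to members. Glyma.12G024700 (chromosome 12, 1807036 to 1808259, plus strand) had 327, 333 and 363 CPM in WT leaf and 155, 196 and 175 CPM in OE leaf, 1.94-fold lower (edgeR adjusted p = 3.15e-05). In root it had 415, 395 and 249 CPM in WT, with replicate 3 the lowest, and 340.1, 318 and 334 CPM in OE (log2 fold change -0.09, SE 0.139, adjusted p = 0.674). Without WT root replicate 3 it was called lower there (-0.29, adjusted p = 0.00859), and the difference of 0.87 (adjusted p = 0.0039) was 0.67 (adjusted p = 2.85e-05).

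Glyma.19G052400 (chromosome 19, 8522893 to 8525752, plus strand) moved less. It had 394, 414 and 393 CPM in WT leaf and 372, 385 and 357 CPM in OE leaf, and 399, 377 and 374 CPM in WT root and 442, 435 and 455 CPM in OE root. The leaf value of -0.11 was not called (edgeR adjusted p = 0.269) and was 0.27 and called with library totals (adjusted p = 0.00195), while the DESeq2 Wald test called it lower (-0.17, adjusted p = 0.0123). The root rise of 1.16-fold was called (adjusted p = 0.03), and leaving out any 1 of OE root replicates 1, 2 and 3 or WT root replicates 2 and 3 ended the call, with adjusted p up to 0.103. The difference of 0.32 was called as well (adjusted p = 0.0264), and was not without OE leaf replicate 3, OE root replicate 3 or WT root replicate 2, or with library totals (0.03, adjusted p = 0.855).

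The balance between tissues in OE plants is given beside that in WT as a description. The rule bounded the WT ratio from 0.5 to 2, so a member could leave these bounds in OE but not in WT. On the totals that the rule used, the ratio of root to leaf had a median of 1.16 in WT and 1.15 in OE. In OE plants 128 of 150 members had a ratio between 0.5 and 2, 6 were under and 16 were over, Glyma.18G103500 with 0 counts in OE leaf among the latter. The lowest OE ratio was 0.203 in Glyma.10G205500, from 0.577 in WT, followed by 0.218 in Glyma.20G167500, from 0.863. The highest was 7.84 in Glyma.16G052000, from 1.518 in WT, and it was 5.71 in Glyma.09G223700 and 5.43 in both Glyma.19G098500 and Glyma.09G153900. The log2 ratio in OE was within 0.5 of that in WT in 106 members. Among the 149 genes chosen on OE levels, whose OE ratios are bounded instead, 115 had a WT ratio within the bounds, 34 were under and 0 were over.

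With TMM, OE root differed from OE leaf in 122 members, where 77.3% of all genes were called, with 27 higher in root and 95 lower, against 40% and 37.4% of all genes. With library totals it was 79 higher and 42 lower, so the direction depends on the scaling.

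**Figure D5:**
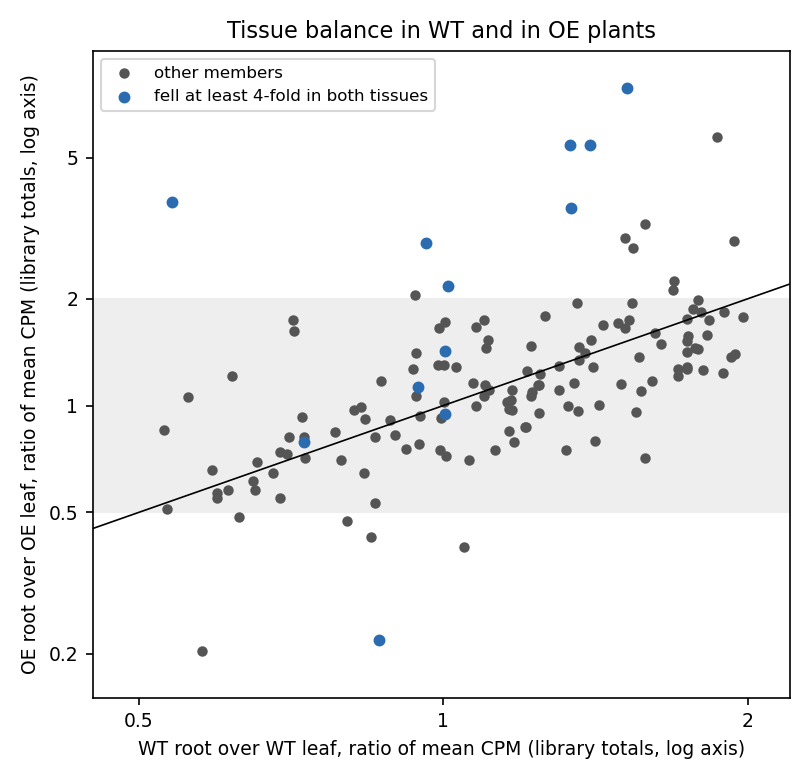
Ratio of mean root level to mean leaf level in OE plants (vertical) against WT plants (horizontal), on CPM of library totals and log axes, for 149 members, with the line of equal ratios and the range from 0.5 to 2 shaded. Glyma.18G103500 has no OE ratio and is not drawn. Most members lie in the shaded range, and blue points, the 12 that fell at least 4-fold in both tissues, include 7 of the 15 drawn above it and 1 of the 6 under it.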

How the data were processed

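The authors counted paired reads over the exons of each gene with featureCounts 2.0.1 and the Wm82.a2.v1 annotation, per the file headers, and deposited these counts without normalization. The command in the file header has no strand option and leaves out multi-mapping or multi-overlapping reads, which lowers counts of near-identical copies and of overlapping genes. The labels do not say how the repeats were grown or pooled, so the p-values reflect only the scatter among these libraries, which may be technical.

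The analysis used edgeR 4.0.16 in R 4.3.3. After filterByExpr, which kept 35968 genes, and TMM scaling, all 12 libraries entered 1 robust quasi-likelihood fit with 4 group coefficients and 8 residual degrees of freedom. Contrasts were OE minus WT per tissue, the root effect minus the leaf effect, and OE root minus OE leaf. Adjusted p-values are edgeR's, by Benjamini-Hochberg over the 35968 genes, and SE is the absolute log2 fold change over the square root of edgeR's F statistic. WT root against WT leaf chose the members and was not tested. DESeq2 1.42.0 served as an alternative, and the fit was tested on simulated data. These were drawn with the fit's own spread per gene and with OE and WT pooled per tissue, before changes were added to sampled genes. They hold no general shift between OE and WT, so they cannot decide between the scalings or the direction of the leaf calls.

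The members, lists and tests were chosen with earlier results of these data known. Genes were named by rule: the 10 most abundant members, up to 5 with the largest called rise and fall per tissue, up to 4 with the largest called difference in each direction, the 5 steadiest, those at the thresholds, and those on the reference list. Planned lists of gene families needed product names and were not applied, since the symbol table of assembly Glycine_max_v4.0 matched 0 identifiers. RCA11, RBCS2, IFS1 and NFR5A were matched to it by chromosome, symbol and genomic span. Alternatives were other scalings, DESeq2, no low-count filter, a replicate block, only the compared libraries, each library left out, and other choices of members.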

Additional observations from a re-analysis of the deposited data

Results flagged for a closer look

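The leaf and root effects differed, by the interaction contrast of the edgeR fit, in 75 of the 150 members. Among the genes named by rule, the effect was higher in root than in leaf, on the log2 scale, by 3.08 in Glyma.03G078300, 2.66 in Glyma.16G052000, 2.31 in Glyma.09G153900, 2.24 in Glyma.19G098500, 1.87 in Glyma.08G056400, 1.39 in Glyma.13G162600, 0.54 in Glyma.17G114700 and 0.40 in Glyma.01G113000, which fell in both tissues. It was higher in root by at least 8.91 in Glyma.18G103500, whose OE leaf libraries held 0 counts. Glyma.10G211000 (1.58), Glyma.19G186100 (1.41) and Glyma.12G159300 (0.97) fell in leaf and rose in root.

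Smaller differences in the same direction were 0.87 in Glyma.12G024700, 0.70 in Glyma.06G030900, 0.52 in Glyma.08G181000, 0.50 in Glyma.10G180100, 0.42 in Glyma.10G183900, 0.38 in Glyma.01G071300 and 0.32 in Glyma.19G052400. The effect was lower in root than in leaf in Glyma.20G167500 (-1.70), Glyma.10G205500 (-1.22), Glyma.05G169900 (-1.10), Glyma.13G145000 (-0.87) and Glyma.19G032000 (-0.40). Low values in WT root replicate 3 move with the differences of Glyma.19G186100, Glyma.10G211000, Glyma.12G159300 and Glyma.12G024700, which were 1.23, 1.44, 0.83 and 0.67 without it and still called.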

How the results depend on the processing

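The scaling of the libraries and the choice of members moved the split of directions most among the alternatives run. With library totals, 35.3% of members were called higher and 35.3% lower in leaf, 24% had a positive and 25.3% a negative difference between tissues, and OE root was above OE leaf in 52.7% and under it in 28%. Leaf values above 0 numbered 36 of 150 members with TMM and 73 with library totals. Among the named genes, those that changed sign were 0.0618 in Glyma.01G071300, 0.15 in Glyma.14G216300, 0.21 in Glyma.07G150400, 0.10 in Glyma.10G205500, 0.33 in Glyma.15G050200, 0.30 in Glyma.15G203700, 0.27 in Glyma.19G052400 and, not called in either, 0.25 in Glyma.01G025100. These follow from the scaling itself, which moves the median leaf value of all genes by 0.38.

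Chosen on OE levels, an alternative added after seeing the data, 30.9% of genes were called higher and 37.6% lower in leaf. In root 34.9% were called higher and 14.1% lower. OE root was above OE leaf in 9.4%, but this choice bounded the ratio of OE root to OE leaf, so that share carries the choice. Members chosen on TMM-scaled WT means (91 of 149 shared) gave OE root above OE leaf in 46.3% and under it in 30.2%, and ratio bounds of 1.5 gave 8% above. The shares of members called in leaf, in root and in the difference between tissues, in either direction together, stayed within 1.5 times of the reported ones in every alternative run. With 1 library left out at a time, 73.3% to 80% of members were called in leaf, 49.3% to 60.7% in root, 43.3% to 50.7% in the difference and 77.3% to 84% between OE tissues.

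Same-numbered OE and WT libraries did not deviate together (correlations -0.04 to 0.08). Same-numbered leaf and root libraries of a genotype had correlations of -0.095 to 0.02, and the difference between tissues treats them as independent. With a replicate block, 77.3% of members were called in leaf, 58% in root and 52.7% in the difference. The root call of Glyma.01G025100 was lost (adjusted p = 0.065) and the difference of Glyma.08G145600 was called (adjusted p = 0.0357). A fit of only the compared libraries was not run for the difference, which needs all 4 groups. Depth limits few members, since each had at least 2151 counts per WT library. However, OE leaf values of some of the largest falls rest on 31 to 86 counts, in Glyma.19G098500, Glyma.08G056400 and Glyma.09G153900.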

Other observations

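Some members lie next to each other on a chromosome. Glyma.04G193400 and Glyma.04G193500, 3803 bp apart on the same strand, were both called lower in leaf only with TMM, with leaf log2 fold changes of -0.31 and -0.62. On CPM of library totals Glyma.04G193400 was higher in OE leaf, at 438 against 416 in WT leaf. Glyma.04G193500 was lower there, at 233 against 275. Glyma.18G015200 and Glyma.18G015300, 433 bp apart, were called in neither tissue. Glyma.13G162800, 24203 bp from Glyma.13G162600, had log2 fold changes of -0.60 in leaf and -0.49 in root, against -5.13 and -3.74 in Glyma.13G162600.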
